A study of Mus musculus with 30 samples.

Results

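The comparison described here set all mice with a cortical stroke against sham-operated mice and asked which spinal transcripts stood apart from sham at every time after the lesion. All animals were adult female C57BL/6 mice, and the labels name no transgene. The stroke was photothrombotic: the dye Rose Bengal was injected and the right sensorimotor cortex was illuminated through the skull, whereas sham mice (named Ctrl in the labels) were operated on without illumination. The tissue was the intermediate gray matter of cervical levels C5/C6 on the side that lost its corticospinal input, dissected 4 to 42 days post injury (dpi), with groups at 4, 7, 14 and 28 dpi and a last one after 6 weeks. Of 30 labelled animals, 29 had values and entered the comparison: 5 sham animals, 4 animals at 4 dpi and 5 at each of the other time points, 24 stroke animals in all. The labels give sham animals no day after surgery. Each time point received equal weight in the mean of the stroke groups.

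When a motor cortex is lost, the corticospinal axons that it sent to the cord degenerate. Microglia, the resident phagocytes of the cord, then take up axon and myelin debris, complement proteins tag material for removal, and astrocytes and oligodendrocytes respond around the lost fibres. Such a reaction can outlast the lesion by weeks, which is why genes displaced at both early and late times are of interest. In bulk tissue, fewer cells of a type and less RNA per cell cannot be told apart.

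The deposited values are normalized CPM (read counts scaled for sequencing depth) rounded to 0.1. Differences are on the scale of log2(value + 0.5), on which a gene with a low value appears to differ by less than it does. Read totals were not used here, so the depth behind a value is unknown and precision comes only from the spread between animals. The median value over genes was 10.2 to 11.2 in every animal, but the sum of an animal's values ranged from 714600 to 2256900. The 18S ribosomal RNA row alone (Rn18s-rs5) was between 30321 and 52929 in sham animals and between 18295 and 817780 in stroke animals, with a median of 104570, and 8 stroke animals at 14, 28 and 42 dpi exceeded 200000. Microglial, astrocytic, oligodendroglial, neuronal and spinal interneuron markers were detected in all 29 animals, among them Mbp at 1777.2 to 3832.2 and Slc17a6 at 134.8 to 212.9. Slc5a7, the choline transporter of motor neurons, varied widely between animals, from 17.9 to 228.6. The sham animals all carried the label units A11 and A12, which held no stroke animal, so that unit and group cannot be told apart.

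No gene passed the test. In a limma fit with Benjamini-Hochberg adjustment over 16995 genes, 0 genes (0%) had an adjusted p under 0.05 for the mean of the 5 stroke groups against sham, and the smallest adjusted p was 0.0567. At an unadjusted p under 0.05 the fit held 1466 genes, 774 higher (4.55% of the genes tested) and 692 lower (4.07%) after stroke, of which 1088 kept 1 sign at all 5 time points. Other settings of the fit to the whole table gave between 0 and 46 genes with an adjusted p under 0.05. All differences below are therefore descriptions of the genes that came nearest to the limit, with their spread.

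Many genes differed between the times after stroke. The F test of a difference between the 5 stroke groups passed for 5686 genes (33.5%) by limma with Benjamini-Hochberg adjustment. Compared singly with sham in the same fit, 4230 genes passed at 28 dpi. The other times had 18 (4 dpi), 5 (7 dpi), 1 (14 dpi) and 4 (42 dpi). The F test held 295 genes when 28 dpi was left out. Leaving out the 8 animals with an 18S value over 200000 keeps only animal A4-1 at 28 dpi, so that no count is given for that fit. With all animals kept and 18S ribosomal RNA as a covariate, the F test held 3912 genes.

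At all 5 time points 1521 genes (8.95%) lay above sham and 2011 (11.8%) below it. This shared sign is a description, because every time point was compared with the same 5 sham animals, so that a sham group displaced by chance gives 1 sign throughout. A stricter count asked for an unadjusted p under 0.05 at each of the 5 time points separately. It held 21 genes, 8 higher (0.0471% of the genes tested) and 13 lower (0.0765%), and none of them after adjustment of the largest of the 5 p values (smallest adjusted p by Benjamini-Hochberg, 1). None of the 21 passed the limma F test between time points (adjusted F p 0.0534 to 0.996). Their mean log2 differences were between 0.186 and 1.36 in size, and 5 went beyond 1.5-fold, 4 of them higher. Among the genes just inside the limit was C4b (largest p, 0.0495). Just outside were Nras (0.0520) and Dpy19l1 (0.0520). These 21 genes were chosen for their p values after the values were seen.

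**Figure D1:**
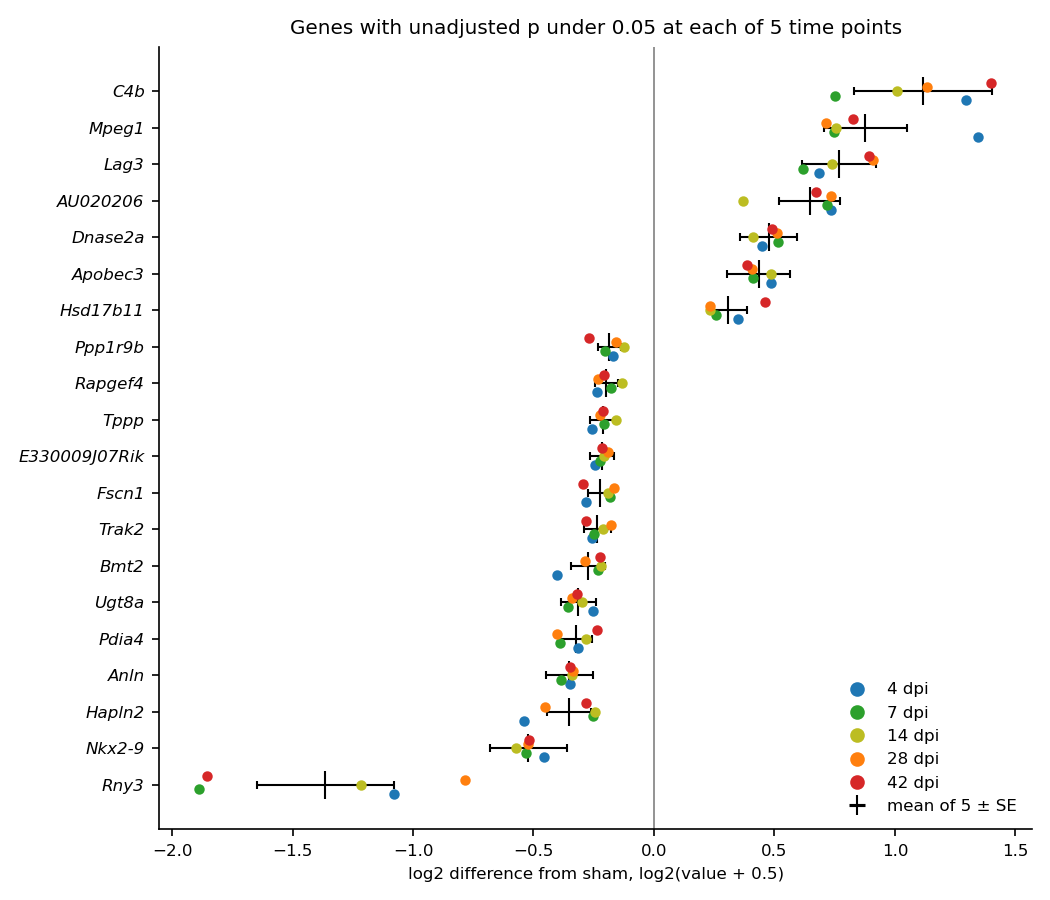
Of the 21 genes, 20 with an unadjusted p under 0.05 against sham at each time point. Coloured points are the log2 difference from sham at each of the 5 times, and the black bar is the mean of the 5 with its standard error. The mean differences run from -1.36 (Rny3) to 1.12 (C4b), and the 5 points of a gene lie on 1 side of 0 by construction.

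The genes nearest to the limit on the higher side were led by Mpeg1, which encodes perforin-2, a pore-forming protein of macrophages and microglia (chr19:12460779-12465283, mm10). The sham animals had values of 5.4, 5.8, 6.9, 7.5 and 7.5. At 4 dpi the values were 11.4, 16.7, 17.5 and 27.5, and at 7 dpi they were 7.7, 7.9, 8.8, 17.8 and 19.5. All 24 stroke animals lay above the highest sham animal, and 2 of the 5 animals at 7 dpi were nearly level with it. At 14 dpi the values were 9.6, 10.1, 11.6, 13 and 13.4. At 28 dpi they were 8.7, 9, 10.5, 13.4 and 15.2. At 42 dpi they were 9.7, 10.7, 11.3, 14.4 and 14.8, so that 6 weeks after the lesion every animal was still above the sham range. The mean log2 difference was 0.88 (SE 0.17, limma with Benjamini-Hochberg adjustment, adjusted p = 0.0620). The difference was 1.34 at 4 dpi and 0.72 to 0.83 at the other times, without a difference between time points that passed the F test (adjusted p = 0.150). Mpeg1 was the 1 gene of all those tested (0.00588%) whose 24 stroke values all lay on 1 side of the 5 sham values in the higher direction, and no gene (0%) lay below sham without overlap.

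Lag3, an inhibitory receptor of lymphocytes that microglia also express, had a similar difference at all times (chr6:124904361-124911705). Its values were low: 0.6, 0.6, 0.7, 0.7 and 0.9 in sham animals and 0.9 to 2.6 in stroke animals, with a median of 1.55. Above the highest sham animal were 22 of 24 stroke animals. The mean log2 difference was 0.77 (SE 0.16, limma with Benjamini-Hochberg adjustment, adjusted p = 0.0748), and the 5 time points gave 0.62 to 0.91. C4b, which encodes complement C4, had the largest mean difference of the 8 higher genes that stood apart at every time point, 1.12 (SE 0.29, limma with Benjamini-Hochberg adjustment, adjusted p = 0.210). Its sham values were 4.3, 4.8, 6.2, 11.7 and 15.1, against 5.7 to 40.6 in stroke animals with a median of 15.95. Only 13 of 24 stroke animals exceeded the sham range, because 2 sham animals, A11-1 and A12-2, stood well above the other 3. Without this pair the difference in C4b was 1.64. C4b shares 48.3% of its 31-base words with C4a, so that the authors' quantification could have split reads between the 2 genes.

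The other genes of this kind were smaller in size. AU020206, a long intergenic noncoding RNA (chr7:75769038-75782099), had values of 1.4, 1.6, 1.9, 1.9 and 2.1 in sham animals and 1.7 to 5.3 in stroke animals with a median of 2.95. All but 1 stroke animal, at 14 dpi, lay above the sham range, and the mean log2 difference was 0.65 (SE 0.13, limma with Benjamini-Hochberg adjustment, adjusted p = 0.0620). Dnase2a, the lysosomal nuclease that digests engulfed DNA, differed by 0.48 with 20 of 24 animals above sham. It overlaps Mast1 on the opposite strand and shares 28.1% of its words with it. Apobec3, a cytidine deaminase that restricts retroviruses, differed by 0.44. Hsd17b11, a steroid dehydrogenase of lipid droplets, differed by 0.31 with 21 of 24 animals above sham. Of the higher genes described here, Mpeg1, Lag3, C4b, Dnase2a and AU020206 kept an unadjusted p under 0.05 at every time point without sham animals A11-1 and A12-2, while Apobec3 (largest p, 0.0654) and Hsd17b11 (0.0501) did not.

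**Figure D2:**
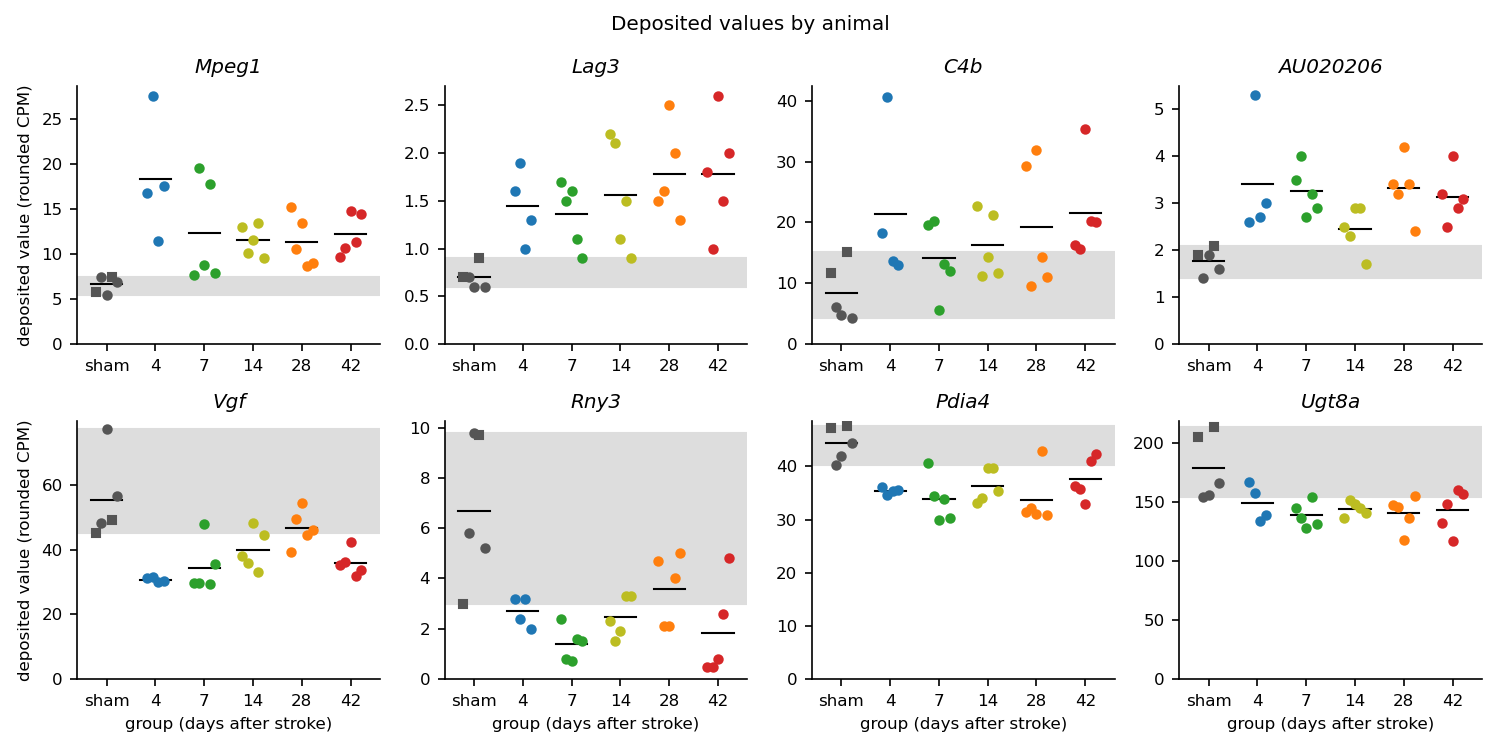
Deposited values of 8 genes in each animal (y axis, CPM rounded to 0.1, starting at 0) by group (x axis, sham and days after stroke). Points are animals, squares are sham animals A11-1 and A12-2, black lines are group means and the gray band is the sham range. For Mpeg1 all 24 stroke points lie above the band, for Rny3 16 lie below it, and for Ugt8a the upper part of the band rests on the 2 squares.

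On the lower side the neuronal secreted protein Vgf and small noncoding RNAs led. Vgf is a neuropeptide precursor that neurotrophins and activity induce (chr5:137026392-137033351). Its sham values were 45.3, 48.3, 49.1, 56.5 and 77.5. At 4 dpi all values lay at 30.1, 30.3, 31.2 and 31.5, a tight group far below sham. At 7 dpi they were 29.3, 29.6, 29.8, 35.7 and 48.1, and at 14 dpi 33.2, 35.8, 38, 44.7 and 48.4. At 28 dpi they were 39.3, 44.5, 46.1, 49.4 and 54.4, which overlapped sham in 3 animals. At 42 dpi they were 32, 33.9, 35.4, 36.3 and 42.3, all below sham again. The mean log2 difference was -0.55 (SE 0.10, limma with Benjamini-Hochberg adjustment, adjusted p = 0.0567), with 19 of 24 animals below the sham range. The size differed between time points (limma F test, Benjamini-Hochberg adjusted p = 0.00916). It was -0.81 at 4 dpi and -0.22 at 28 dpi.

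Of the 10 genes with the smallest p on the lower side, 4 were small noncoding RNAs of 102 to 338 bases. Rny3 is a Y RNA, which binds the Ro60 protein. Rn7s6 is annotated as a copy of 7SL RNA, the RNA of the signal recognition particle, and Gm24447 shares most of its words of 31 bases with Rn7sk, the 7SK RNA that holds back transcription elongation, and Gm26315 with Gm24447. The sequences of Rny3 and Gm26315 are shown since Rny3 shares no word with another gene and Gm26315 shares most. They are GENCODE M21 transcripts (GRCm38, the assembly also called mm10), 5′ to 3′, and capitals mark the stretches whose 31-base words all occur in another annotated gene on either strand. The first 300 bases of Gm26315 are given.
Rny3: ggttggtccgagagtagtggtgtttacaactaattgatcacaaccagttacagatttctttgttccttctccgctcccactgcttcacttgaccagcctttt
Gm26315: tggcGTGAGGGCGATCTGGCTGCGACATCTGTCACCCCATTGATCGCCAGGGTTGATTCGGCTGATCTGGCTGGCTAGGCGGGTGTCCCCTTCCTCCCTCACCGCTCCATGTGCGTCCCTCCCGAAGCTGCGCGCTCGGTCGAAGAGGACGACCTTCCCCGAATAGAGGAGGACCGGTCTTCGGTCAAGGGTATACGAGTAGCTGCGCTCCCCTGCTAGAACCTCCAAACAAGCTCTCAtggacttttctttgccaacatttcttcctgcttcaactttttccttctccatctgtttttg
Rny3 (chr6:47781624-47781725, plus strand) has no capital and shares 0% of its words. Rn7s6 (chr6:69516339-69516629, plus strand, inside Gm47304) shares 56.3% of its words with any gene and 54.8% with Rn7s1. Gm26315 (chr2:7076094-7076414, minus strand, inside Celf2) shares 70.4%, all of them with Gm24447 (chr15:93234363-93234700, plus strand). Gm24447 shares 68.5% with Rn7sk. Rn7s6, Gm26315 and Gm24447 are therefore uncertain as separate genes, and the last 2 are not independent of each other.

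Rny3 was the lowest of all genes tested in mean log2 difference, -1.36 (SE 0.28, limma with Benjamini-Hochberg adjustment, adjusted p = 0.0962). Its sham values were 3, 5.2, 5.8, 9.7 and 9.8. At 4 dpi they were 2, 2.4, 3.2 and 3.2, at 7 dpi 0.7, 0.8, 1.5, 1.6 and 2.4, and at 14 dpi 1.5, 1.9, 2.3, 3.3 and 3.3. At 28 dpi they were 2.1, 2.1, 4, 4.7 and 5, and at 42 dpi 0.5, 0.5, 0.8, 2.6 and 4.8. No stroke animal exceeded 5, whereas 4 of the 5 sham animals did. Below the lowest sham animal were 16 of 24 stroke animals.

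Rn7s6 had values of 2.8, 2.9, 3, 5.2 and 5.2 in sham animals. It was at 0.3 to 0.7 at 7 dpi and 0.1 to 0.3 at 14 dpi, but at 2.1 to 6.7 at 28 dpi, where 3 of 5 animals lay at or above the middle of the sham values. Its mean difference was -1.24 (SE 0.23, limma with Benjamini-Hochberg adjustment, adjusted p = 0.0567). That mean averages unequal times (limma F test, Benjamini-Hochberg adjusted p = 1.83e-05). Gm26315, with sham values of 3.8, 4.4, 5.1, 8.2 and 8.8, was at 3.7 to 7.2 at 4 dpi and at 0.4 to 3.6 from 7 dpi on (mean difference -1.22). Gm24447 differed by -0.78 with 22 of 24 animals below sham. The abundant Rn7sk row, with a mean value of 9583.5, differed by only -0.31 with 11 of 24 animals below sham.

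Across the list of small noncoding RNAs, all 10 measured members had a mean below sham, 5 of them at an unadjusted p under 0.05 and none at an adjusted p under 0.05. The median log2 difference was -0.42, against -0.0020 over all genes. Rmrp, the RNA of the mitochondrial RNA-processing ribonuclease, had a sham range of 468.7 to 800.6 and was at 156.1 to 736.6 after stroke (difference -0.66). Rny1 differed by -0.98 and Rpph1, the RNA of ribonuclease P, by -0.46. Rn7s1 and Rn7s2, the abundant 7SL rows with mean values of 16559 and 16562, differed by -0.39 each but are near-identical and count as 1 signal. The mean over the list, computed per animal relative to the sham mean, was -0.25 to 0.18 in sham animals and -1.64 to 0.30 in stroke animals, with 19 of 24 below the sham range and 2 animals at 28 dpi and 1 at 42 dpi above 0. Without the 8 animals with an 18S value over 200000, which leaves only animal A4-1 at 28 dpi, the median of the list was -0.60. Without sham animal A12-1, 8 of 10 members had an unadjusted p under 0.05.

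Genes of phagocytes and their lysosomes lay on the higher side. All 21 measured members had a mean above sham, 15 at all 5 time points, and 11 had an unadjusted p under 0.05, none an adjusted one. The study named Mpeg1, Lag3, Fcgr3, Fcgr2b, Clec7a, Trem2 and Grn among its early upregulated genes. It found them in these samples, so that these counts are not independent evidence. Across all genes, 8.63% had an unadjusted p under 0.05 in either direction. The median log2 difference of the list was 0.47, and it was largest at 4 dpi (0.68). In the order of the later times it was 0.38, 0.56, 0.13 and 0.22. Beside Mpeg1 and Lag3, the members with the smallest p were Fcgr3, an activating Fc receptor, and Clec7a, the beta-glucan receptor dectin-1. Clec7a was at 0, 0.1, 0.2, 0.3 and 0.3 in sham animals and at 0.1 to 3.8 in stroke animals, with 19 of 24 above the sham range (difference 1.16). With sham values this low, Clec7a may have passed the authors' filter on low expression only through stroke animals. Fcgr3 was at 2 to 3.3 in sham animals, differed by 1.30 at 4 dpi and by 0.00035 at 28 dpi, so that its mean of 0.56 described the early times. Lyz2 (0.88), Trem2 (0.53), the debris receptor of microglia, and Ctss (0.57), a lysosomal protease, were higher on average, whereas Lgmn (0.020) and Ctsb (0.039) were near 0. The mean over the list was -0.054 to 0.087 in sham animals and -0.079 to 1.07 in stroke animals, with 22 of 24 above the sham range, and both exceptions were at 28 dpi.

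Complement genes showed the same direction. Of 13 measured members 12 had a mean above sham, 8 at all 5 time points, and 6 had an unadjusted p under 0.05, with a median of 0.26. The study's early upregulated genes from these samples include C1qa, C1qb, C1qc and C4b, so that these counts are not independent evidence either. C1qc (0.57), C1qa (0.48) and C1qb (0.46) encode the initiating C1q complex, which tags synapses and debris. C1qa was at 8.9, 9.8, 10.2, 11.3 and 11.6 in sham animals and at 8.3 to 27.3 in stroke animals, 18 of them above sham. It differed by 0.92 at 4 dpi and 0.17 at 28 dpi. The anaphylatoxin receptor C3ar1 differed by 0.44. C3 itself differed by 0.20 (unadjusted p = 0.481, limma), with no stroke animal above the sham range.

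Homeostatic microglial genes, which mark the surveying state, had a smaller displacement: 12 of 12 means above sham, 6 with an unadjusted p under 0.05, and a median of 0.22. Siglech differed by 0.39 with 21 of 24 animals above sham, Csf1r, the survival receptor of microglia, by 0.36 and Cx3cr1, the fractalkine receptor, by 0.33. Csf1r and, in the next list, Cd74 were also among the study's early upregulated genes, chosen on these samples. Cx3cr1 was at 12.9 to 15 in sham animals and at 12.9 to 25.2 in stroke animals, but its difference at 42 dpi was only 0.078. P2ry12 (0.091) and Tmem119 (0.11) were hardly displaced. Antigen presentation and interferon genes had 14 of 14 means above sham with a median of 0.23, and 4 of them, Irf8, B2m, H2-K1 and Cd74, had an unadjusted p under 0.05. Only 3 of the 14 lay above sham at all 5 time points. At 28 dpi the list's median was -0.045, with B2m at -0.10 and H2-K1 at -0.029, and without 28 dpi 7 members had an unadjusted p under 0.05. Without sham animals A11-1 and A12-2 there were 2. Reactive astrocyte genes had 3 of 9 at that limit and a median of 0.24, with 1 of 9 at the limit without sham animal A12-1. Gfap, the filament protein of reactive astrocytes, was at 116.9, 125.9, 130.5, 236 and 303.3 in sham animals, and the 2 high values belonged to A11-1 and A12-2. At 4 dpi it was at 277.5 to 584.3, and 3 of 4 animals exceeded every sham animal. At 7 dpi 1 of 5 did. No later animal did. The log2 difference was 1.18 at 4 dpi, 0.61 at 7 dpi and 0.059 to 0.14 later, and it differed between time points (limma F test, Benjamini-Hochberg adjusted p = 0.0030).

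A rescaling moved all genes together. With each animal rescaled to the same sum, ribosomal RNA included, the median of all genes was -0.36, and relative to zero the medians of the homeostatic microglial (-0.14), antigen presentation (-0.070), reactive astrocyte (-0.071) and neurite growth (-0.11) lists changed sign. Those of the phagocyte list (0.16) and of the complement list (0.0059) stayed above 0. Relative to that median of all genes, each of these lists was still higher, so that the changes of sign follow from the common shift.

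Pituitary hormone transcripts also lay higher in stroke than in sham animals. Prl (prolactin) was listed at 0 in 4 sham animals and at 0.2 in the other, and reached 19.6 in stroke animals with a median of 0.8. Gh (growth hormone) was at 0 to 0.1 in sham animals and up to 7.4 after stroke. Of 4 measured members of the pituitary list, Prl, Gh and Pomc had an unadjusted p under 0.05, all higher, and 18 of 24 stroke animals exceeded the sham range of the list's mean. With sham values this low, Prl and Gh could have passed the authors' filter on low expression only through stroke animals. Their direction was thereby fixed, and the list's mean rests on them in part. Prl, Gh and Pomc encode hormones of the pituitary, and the part of pituitary RNA in the results above was not tested. Blood genes had 1 of 5 at that limit (Alas2, 0.41), meningeal and collagen genes 1 of 8 (Col1a1, 0.37), and endothelial and pericyte genes 3 of 11 in both directions, or 1 without sham animal A12-3. The blood gene and the collagen gene were no longer at the limit without 28 dpi, nor the collagen gene without 14 dpi or any 1 of sham animals A11-1, A11-4, A12-1 and A12-3. Schwann cell and peripheral nerve genes had 0 of 3 at that limit by limma, nor any at an adjusted p under 0.05.

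**Figure D3:**
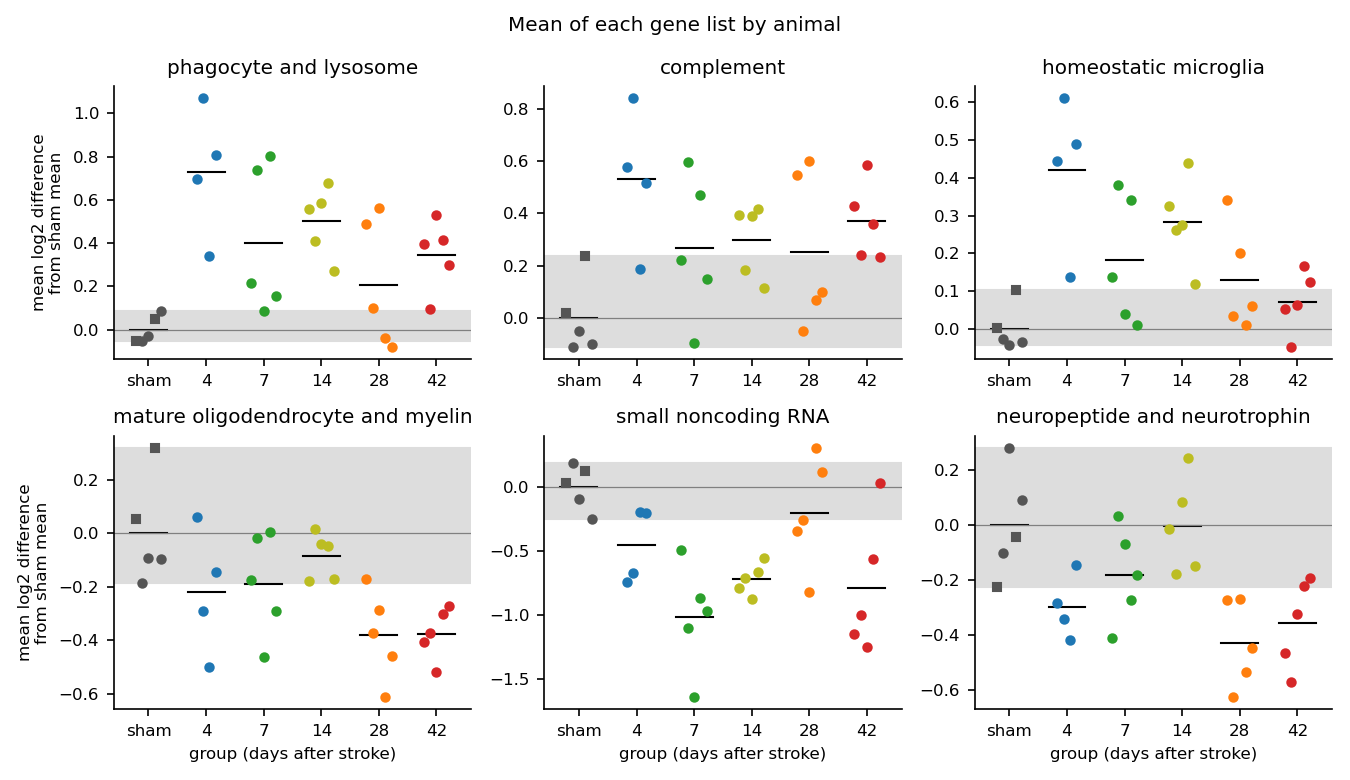
Mean log2 difference from the sham mean over the measured members of 6 gene lists (y axis), for each animal by group (x axis, sham and days after stroke). Points are animals, squares are sham animals A11-1 and A12-2, black lines are group means and the gray band is the sham range. In the phagocyte list 22 of 24 stroke animals lie above the band, and in the myelin list 13 lie below it while 1 square, A12-2, sets its upper edge at 0.32.

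Genes of mature oligodendrocytes and myelin lay on the lower side. Of 13 measured members 12 had a mean below sham, 11 at all 5 time points, the same number had an unadjusted p under 0.05, and none passed the adjusted test. The median log2 difference was -0.26. Ugt8a, which makes the myelin lipid galactocerebroside, had values of 154.6, 156.4, 166.1, 205.8 and 214.3 in sham animals and 116.9 to 167 in stroke animals, with a median of 144.9. Below the lowest sham animal were 18 of 24 stroke animals. Its mean difference was -0.31 (SE 0.072, limma with Benjamini-Hochberg adjustment, adjusted p = 0.165), and the 5 time points gave -0.25 to -0.36. Gsn, an actin-severing protein abundant in oligodendrocytes, differed by -0.45, Cldn11, the tight junction protein of myelin, by -0.33 and Mal by -0.30. Cldn11 was displaced mostly late: its difference was -0.058 at 4 dpi and -0.58 at 28 dpi. Opalin (0.032) did not share the direction.

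This displacement rested in large part on 2 of the 5 sham animals. Ugt8a was at 205.8 in A11-1 and 214.3 in A12-2, and Anln, an actin and septin binding protein of cytokinesis and myelin, was at 81.6 and 90.5 in that pair against 57.2 to 59.3 in the other 3 sham animals. Without the pair, only 3 of the 13 myelin genes had an unadjusted p under 0.05, 5 lay below sham at all time points, and the median was -0.13. Gsn then differed by -0.22, Ugt8a by -0.15, Anln by -0.13 and Trak2 by -0.10. The pair was left out after its values were seen. Oligodendrocyte precursor genes had 2 of 10 with an unadjusted p under 0.05, both lower (Gpr17 and Enpp6), and a median of -0.14. Without sham animals A11-1 and A12-2 the oligodendrocyte precursor median was -0.024, with 1 gene lower and 1 higher at that limit. Without A12-2 alone 1 gene was at the limit, and without sham animal A11-4, without A9-2 (4 dpi) or without 28 dpi there were 4. The 11 myelin genes became 7 without A12-2 alone.

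The other genes in the 13 on the lower side included further products of oligodendrocytes. Hapln2, a link protein of the node of Ranvier, differed by -0.35 and Tppp, a tubulin-polymerizing protein of oligodendrocytes, by -0.21. Trak2, which couples mitochondria to kinesin, was at 116.5, 117, 118.3, 147.8 and 149 in sham animals and differed by -0.24, again with the 2 high values in A11-1 and A12-2. Neuronal and general genes were Ppp1r9b (spinophilin of dendritic spines, -0.19, 23 of 24 animals below sham), Rapgef4 (the cAMP sensor Epac2, -0.20, 22 of 24), Fscn1 (an actin bundler, -0.22) and Pdia4. E330009J07Rik differed by -0.22 with 20 of 24 below sham and Bmt2, a sensor of S-adenosylmethionine, by -0.27. Nkx2-9, a homeobox gene of the ventral midline, was at 1.5, 1.5, 1.7, 1.8 and 3 in sham animals and 0.5 to 1.8 after stroke (-0.52). Only Rny3 and Bmt2 of the 13 kept an unadjusted p under 0.05 at every time point without sham animals A11-1 and A12-2.

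Pdia4, a disulfide isomerase of the endoplasmic reticulum, had the smallest p of the protein-coding genes on that list. Its sham values were 40.3, 42, 44.5, 47.2 and 47.7, and stroke animals ranged from 30 to 42.9 with a median of 35. Below the sham range were 20 of 24 stroke animals. The mean difference was -0.32 (SE 0.068, limma with Benjamini-Hochberg adjustment, adjusted p = 0.0962), between -0.24 and -0.40 at the 5 time points. Without the pair of sham animals it was -0.26.

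Neuropeptide and neurotrophin genes, Vgf included, had 11 of 13 means below sham, 5 of them with an unadjusted p under 0.05, and a median of -0.23. Bdnf, the neurotrophin that acts on TrkB, was at 4, 4.1, 4.4, 5.6 and 6.2 in sham animals and 2.1 to 5.2 in stroke animals, 17 of them below sham (difference -0.42). Scg2, a granin of secretory vesicles, differed by -0.25. Tac1 (-0.56), the substance P precursor, and Calca (-0.63), the CGRP precursor, varied more, with standard errors of 0.26 and 0.29. The list's median was 0.015 at 14 dpi and -0.47 at 28 dpi. Without sham animals A11-1 and A12-2 the list had 5 members at that limit and its median was -0.31. Without sham animal A12-1, without A12-2 alone or without 42 dpi it had 3. Immediate early genes had 10 of 10 means below sham and 2 with an unadjusted p under 0.05 (Btg2 and Arc), with a median of -0.28. That count was 0 without sham animal A12-2, 4 without 14 dpi, and 1 without sham animal A11-4 or A12-3, animal A10-4 or A9-2 (both 4 dpi), 7 dpi or 42 dpi. Glucocorticoid-responsive genes had 1 of 12 (Errfi1, -0.26), and 3 without sham animals A11-1 and A12-2, a pair without which 1 immediate early gene was at the limit.

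Lists of general neuronal identity had medians near 0. Of 12 neuronal genes and 8 transmitter identity genes 0 had an unadjusted p under 0.05 by limma, nor an adjusted one, and their medians were 0.0047 and -0.032. Cytosolic ribosomal protein genes (79) and nuclear oxidative phosphorylation genes (75) also had 0 at that limit, although 75 and 73 of them differed between time points by the adjusted F test. Ribosomal protein genes had medians of 0.32 at 14 dpi and -0.45 at 28 dpi. Mitochondrially encoded genes had 15 of 15 means above sham, but only 5 lay above it at all 5 time points. By the adjusted F test 8 of the 15 differed between time points. The list had 6 members with an unadjusted p under 0.05 and a median of 0.28, which was 0.0235 at 28 dpi. Without sham animals A11-1 and A12-2 the median was 0.046. The 6 at the limit became 0 without this pair, 3 without A11-1 alone, and 10 without A4-4 (28 dpi) or without 28 dpi altogether. Homeostatic astrocyte genes had 3 of 11 at the limit in both directions, and 0 without 28 dpi. Circadian clock genes had 3 of 15, which became 0 without sham animal A12-1 and 1 without 28 dpi.

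Genes with the smallest p on the higher side were not all of immune type. Cdr1 differed by 1.00 (SE 0.22, limma with Benjamini-Hochberg adjustment, adjusted p = 0.142). It was at 29.8, 34.9, 35.2, 40.9 and 48.4 in sham animals, at 29.4 to 64.7 at 4 dpi and at 104.7 to 161.4 at 42 dpi. The difference grew from 0.24 at 4 dpi to 1.72 at 42 dpi, and the row shares 100% of its words with C230004F18Rik on the opposite strand, so that the 2 cannot be told apart without strand. Cenpi (0.39) and Gm43331 (0.46) also had their larger differences at 28 and 42 dpi, while Scube1 (0.39) was near sham at 14 dpi only (0.050). Parm1 (0.25), Fam189b (0.38) and Lair1 (0.35), an inhibitory collagen receptor of leukocytes, completed the 10. On the lower side Cyp51, an enzyme of cholesterol synthesis, differed by -0.26 with 19 of 24 animals below sham and Tmem151b by -0.19.

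Neurite growth factors and guidance genes had 12 of 12 means above sham and 8 with an unadjusted p under 0.05, with a median of 0.25. The study chose this list on these samples, so that it is not independent evidence of its direction. Its median was 0.65 at 28 dpi and -0.020 at 14 dpi, and without 28 dpi only 3 members had an unadjusted p under 0.05. Ntng2 differed by 0.34, Sema6a, a semaphorin, by 0.25 and Gdf7, a secreted factor of the roof plate, by 0.97. Of 9 rows listed as nuclear long noncoding RNA, the 1 at the limit was Cdr1, which the annotation gives as protein-coding. In rRNA-linked rows 4 of 6 were at the limit, with a median of 1.25, but 0 of 6 kept 1 sign at all time points. Their median was -0.14 at 4 dpi and 2.41 at 28 dpi, and all 6 differed between time points by the adjusted F test. Without sham animals A11-1 and A12-2, 2 were at the limit, and 1 with 18S ribosomal RNA as a covariate.

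**Figure D4:**
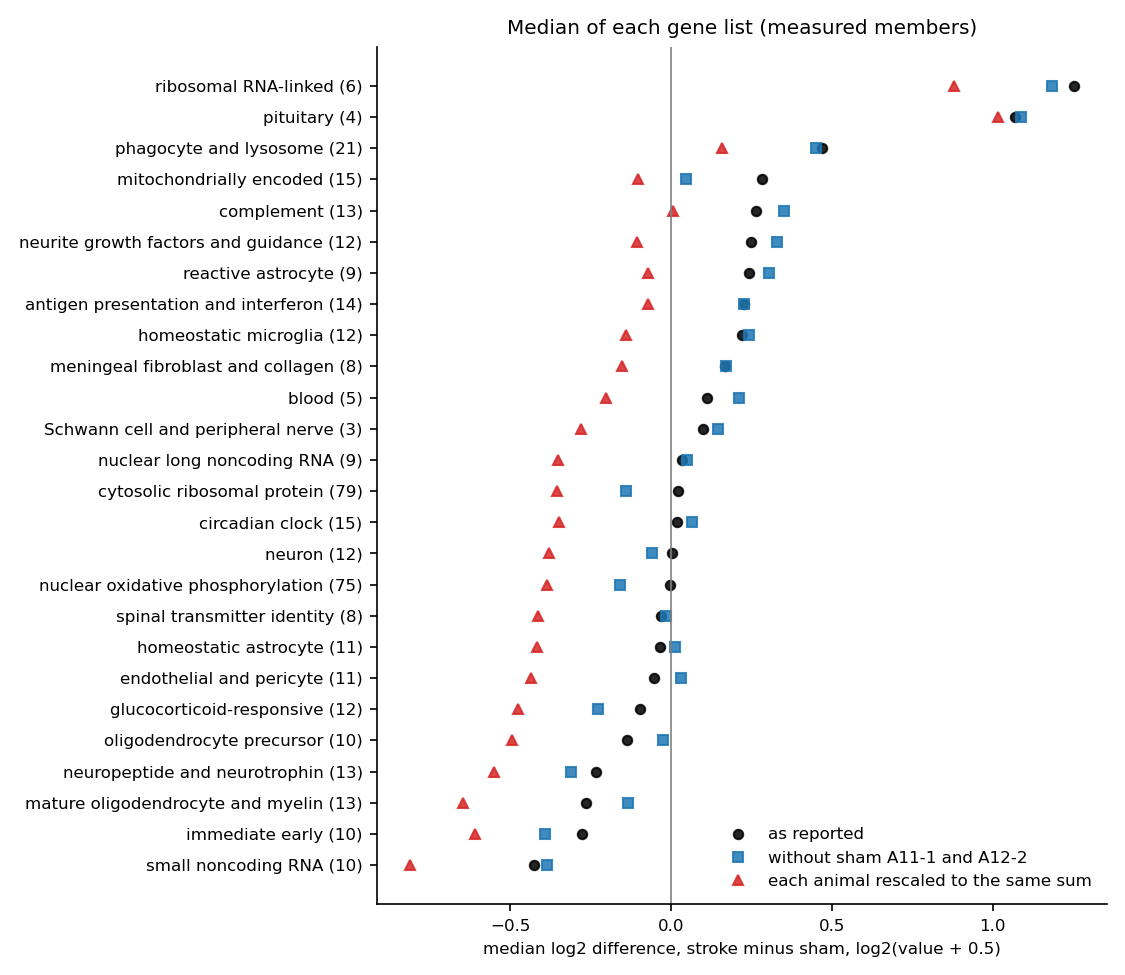
Median log2 difference of stroke minus sham (x axis) of 26 gene lists, with the number of measured members in brackets. Black points are the medians as reported, blue squares those without sham animals A11-1 and A12-2, and red triangles those with each animal rescaled to the same sum, a scaling under which the median of all genes was -0.36. The myelin list moves from -0.26 to -0.13 without the pair, and the phagocyte list from 0.47 to 0.45.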

How the data were processed

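Total RNA was ribosome-depleted and sequenced on single-end libraries. Before deposit the authors assigned reads to mouse transcripts (mm10) by SALMON, summarised them per gene with Tximport, removed genes of low expression and normalized with edgeR (3.14.0 per the labels, with R 3.4.1). The deposited score is a normalized CPM rounded to 0.1 and not a count, so that no count model was used, and depth is unknown. The authors' own comparison columns (fold changes and p values per time point) were not used. 1 labelled animal (A9-3, 4 dpi) has no column of values and was not analysed here. Every column of values used belonged to a labelled sample. Replicates are separate animals.

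Values were analysed as log2(value + 0.5) in limma 3.58.1 (R 4.3.3), with 1 mean per group, a trend on the mean value and Benjamini-Hochberg adjustment over 16995 genes. The contrast was the mean of the 5 stroke groups minus sham. An F test compared the 5 stroke groups, and the largest p over the time points served for the count at every time point. Gene lists were described by counts and medians, without a set test. Named genes were the 10 with the smallest p in each direction, since no gene passed, and genes without overlap between stroke and sham animals. The 21 genes with p under 0.05 at every time point and the list members shown were picked with their values in view. Some genes and 1 sequence are not reported here. The members and lists were chosen with earlier results of these data known. Gene positions, transcripts and shared 31-base words were taken from GENCODE M21. The method was tested on simulated data. Alternatives were other pseudocounts, a filter on the mean value, other scalings, a fit without the trend, equal weight of animals, 18S ribosomal RNA as a covariate, the label unit as a random block, a length and GC correction, and leaving out each time point and each animal. Leaving out the animals with an 18S value over 200000 and leaving out sham animals A11-1 and A12-2 were added after the data were seen. The first of these keeps only animal A4-1 at 28 dpi, so that only list medians are given for it.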

Additional observations from a re-analysis of the deposited data

Results flagged for a closer look

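Of the genes named for their p values, 11 differed between time points by the F test (limma, Benjamini-Hochberg adjustment). The late mean (28 and 42 dpi) minus the early one, with the limma F test's Benjamini-Hochberg adjusted p, was 1.19 for Cdr1 (adjusted p = 0.000551), 0.43 for Cenpi (0.00159), 0.50 for Gm43331 (0.00199), 0.29 for Scube1 (0.00797) and 0.10 for Lair1 (0.0452), which were higher than sham on average. Among the lower genes, again with the limma F test's Benjamini-Hochberg adjusted p, the difference was 1.25 for Rn7s6 (adjusted p = 1.83e-05), 0.24 for Vgf (0.00916), 0.11 for Tmem151b (0.0129), 0.083 for Gm24447 (0.0303), -0.32 for Gsn (0.0143) and -0.45 for Gm26315 (0.00136). The limma test of the late minus early difference itself gave a Benjamini-Hochberg adjusted p of 0.257 for Lair1, 0.660 for Gm24447 and 0.0618 for Gm26315. For the other genes of the 11 it was under 0.05.

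Single animals stood apart from their group in 9 of 204 comparisons of a gene in a group, against about 1 in 20 that chance gives. At 4 dpi AU020206 was 5.3 in A10-4, against 2.6 to 3 in the others. At 42 dpi C4b was 35.3 in A1-3, against 15.6 to 20.2, and Fam189b was 8.8 in A1-4, against 12.3 to 13.4. At 7 dpi Dnase2a was 2.3 in A7-2, against 3.3 to 3.7, and Nkx2-9 was 1.6 in A8-1, against 0.9 to 1.1. At 28 dpi A4-3 stood apart in both Gm24447 (4.9, against 3.1 to 3.6) and Pdia4 (42.9, against 30.8 to 32.2). At 14 dpi Rapgef4 was 117.4 in A5-4, against 130.3 to 133.6. Among sham animals Nkx2-9 was 3 in A12-2, against 1.5 to 1.8.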

How the results depend on the processing

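The count of genes with an adjusted p under 0.05 was 0 as reported. It was 5 with a pseudocount of 0.1, 5 with median centring, 46 with each animal rescaled to the same sum (8 higher, 38 lower) and 2 with 18S ribosomal RNA as a covariate. It was 8 with animals of 1 label unit treated as a random block (estimated correlation within units, -0.044) and 7 with a length and GC correction. It was 4 without 4 dpi, 2 without 14 dpi and 6 without 28 dpi. All of these genes kept 1 sign at all time points, except with the same sum, where 42 did. Those that also differed between time points numbered, in the same order, 2, 3, 29, 1, 4, 3, 2, 1 and 2. The count stayed at 0 with a pseudocount of 1, a mean value of at least 1, quantile normalization, no trend, equal weight of animals, without 7 dpi, without 42 dpi, at an adjusted p under 0.01 and without sham animals A11-1 and A12-2. Leaving out 1 animal at a time gave 0 to 7 called genes, the highest without A6-3 at 14 dpi, 0 to 7 of them of 1 sign at all time points and 0 to 4 that differed between time points.

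Genes with an unadjusted p under 0.05 numbered 5516 with the same sum, 926 with equal weight of animals and 2225 without 14 dpi. The 21 genes at every time point became 40 with the 18S covariate, 33 with the length and GC correction, 33 without 4 dpi, 33 without 7 dpi, 71 without 14 dpi, 49 without 28 dpi and 38 without 42 dpi, where fewer time points are required. They became 15 to 36 without 1 animal, lowest without sham animal A12-2 and highest without sham animals A11-4 (36) and A12-1 (33), and 10 of the 21 remained without A12-2. They became 22 without A11-1 and A12-2, with 7 of the 21 remaining, and 22 with the same sum, with 1 remaining. Genes that differed between time points numbered 8958 with the same sum, 295 without 28 dpi, 3197 at an adjusted p under 0.01 and 23 without the animals with an 18S value over 200000. With the same sum Parm1 (-0.13), Lair1 (-0.0072) and Hsd17b11 (-0.053) lay below 0, though not below the median of all genes under that scaling (-0.36). The others of the 34 genes named for their p values kept their direction in all alternatives. For the other list members the alternatives gave counts and medians of the list, not a value for each gene. Gene list medians moved by more than the SD of the sham animals as follows. With the same sum they were 0.0059 (complement), 0.16 (phagocyte and lysosome), -0.14 (homeostatic microglia), -0.070 (antigen presentation and interferon), -0.071 (reactive astrocyte), -0.42 (homeostatic astrocyte), -0.65 (mature oligodendrocyte and myelin), -0.49 (oligodendrocyte precursor), -0.38 (neuron), -0.41 (spinal transmitter identity), -0.55 (neuropeptide and neurotrophin), -0.61 (immediate early), -0.48 (glucocorticoid-responsive), -0.35 (circadian clock), -0.44 (endothelial and pericyte), -0.15 (meningeal fibroblast and collagen), -0.28 (Schwann cell and peripheral nerve), -0.81 (small noncoding RNA), 0.88 (ribosomal RNA-linked), -0.35 (nuclear long noncoding RNA), -0.11 (neurite growth factors and guidance), -0.35 (cytosolic ribosomal protein), -0.38 (nuclear oxidative phosphorylation) and -0.10 (mitochondrially encoded). The pituitary median was 0.77 with a pseudocount of 1, 1.81 with 0.1, 0.84 without 4 dpi and 1.44 without the high 18S animals. The small noncoding RNA median was -0.62 with quantile normalization, -0.68 with the 18S covariate and -0.60 without the high 18S animals. The ribosomal RNA-linked median was, under these, 0.20, 0.095 and 0.60, and 1.61, 1.46, 0.96 and 0.98 without 4, 7, 28 and 42 dpi. The phagocyte and lysosome median was 0.57 with the 18S covariate, 0.56 without the high 18S animals, 0.33 without 4 dpi and 0.41 to 0.50 without 1 animal. The antigen presentation and interferon median was 0.33 with the covariate and 0.31 without the high 18S animals, and that of homeostatic microglia 0.16 without 4 dpi. The nuclear long noncoding RNA median was -0.023 with the length and GC correction, 0.091 without 7 dpi and -0.024 without 28 dpi, and that of neurite growth factors and guidance 0.15 without 28 dpi. That of homeostatic astrocyte genes was 0.028 without sham animal A12-2, the highest value without 1 animal, and -0.044 at the lowest. Without the high 18S animals only A4-1 stays at 28 dpi, so that no count of list members with an unadjusted p under 0.05 is given there. With the 18S covariate all 10 of small noncoding RNA were at that limit, and 8 with quantile normalization. The causes were not tested, apart from the smaller number of time points. No paired analysis was possible because the labels of different groups share no animal number, and the 1 label unit in 2 groups, A3, held 2 animals at 28 dpi and 1 at 42 dpi and no sham animal. Depth is unknown, so that limits for genes of low value could not be given.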
